A study of Homo sapiens with 12 samples.

Results

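The phagocyte NADPH oxidase was followed through 7 of its genes: CYBB, CYBA, NCF1, NCF4, RAC2, RAC1 and CYBC1. Each symbol was matched to the Ensembl identifier with the most reads, and these 7 rows were taken from a table of 57905 identifiers. In 6 of the 7 there were enough reads for a test, among 13832 tested genes in all, and NCF1 had too few. The cells were OCI-AML3, an established human line of acute myeloid leukaemia. RNA was read by QuantSeq, which reads 1 tag per transcript close to the poly(A) tail, in 12 libraries that form 4 groups of 3. The Vehicle group had the carrier alone for 6 days, and the SA group had SA at 500 µM for 6 days. The labels do not spell SA out, and in heme research these letters usually mean succinylacetone, which blocks ALAD, the enzyme after ALAS1 in the heme pathway. The sgSCR group carried a scrambled guide and the sgALAS1 group a guide against ALAS1, the gene of the first enzyme of heme synthesis, and both were given doxycycline for 7 days to switch the guide on. The labels do not say whether the guide lines are clones or mixed populations, nor do they tell if the replicates were grown separately. The p-values below therefore measure only the spread between these libraries.

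The oxidase makes superoxide by passing electrons from NADPH across a membrane to oxygen. Its membrane core, cytochrome b558, pairs the catalytic chain gp91phox, made from CYBB, with p22phox, made from CYBA. The catalytic chain carries heme groups that conduct the electrons, and without heme the pair of chains is known to assemble poorly. CYBC1 encodes EROS, a chaperone of the endoplasmic reticulum that gp91phox needs to mature. At rest the organiser p47phox (NCF1) and its partner p40phox (NCF4) lie in the cytosol; on stimulation they move to the membrane together with a RAC GTPase, which in blood cells is mostly RAC2, while RAC1 is made in nearly all cells. The oxidase serves microbial killing in neutrophils and monocytes, and its genes come on as myeloid cells mature.

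The promoters of the cytochrome's genes are shown because the products of CYBB and CYBA need each other. CYBB passed the test in both arms and CYBA in neither, although CYBA passed with SA when Vehicle replicate 1 was left out. The difference between the genes was not tested, nor was any part of the promoters in their changes. RefSeq (GRCh38.p14) gave a window for 4 of the 7 genes, CYBB, CYBA, NCF1 and CYBC1, and each window was read over the 250 bases before the annotated start. The searches, on both strands, were for GAGGAA (the core bound by PU.1, the product of SPI1), CCAAT and a GAAA pair, that is a GAAA, any 2 bases and a GAAA (a half-site pair of interferon regulatory factors), and capitals mark the matches.
CYBB (chrX:37779809-37780058, plus strand): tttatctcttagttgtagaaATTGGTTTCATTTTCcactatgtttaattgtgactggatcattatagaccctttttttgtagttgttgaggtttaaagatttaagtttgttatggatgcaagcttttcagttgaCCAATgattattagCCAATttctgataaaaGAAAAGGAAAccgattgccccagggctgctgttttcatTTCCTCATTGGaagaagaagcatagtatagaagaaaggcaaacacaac
CYBA (chr16:88651054-88651303, minus strand): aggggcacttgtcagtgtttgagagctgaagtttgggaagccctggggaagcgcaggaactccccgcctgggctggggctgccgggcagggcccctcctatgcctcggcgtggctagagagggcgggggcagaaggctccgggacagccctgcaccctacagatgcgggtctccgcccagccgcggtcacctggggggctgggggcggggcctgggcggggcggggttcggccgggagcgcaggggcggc
The CYBB window held 1 match to GAGGAA, on the reverse strand 48 to 43 bases before the start, 4 to CCAAT and 2 to the GAAA pair. None of these matches overlapped another, although 2 pairs adjoin: a CCAAT and a GAAA pair match at 230 to 216 bases before the start, and the GAGGAA and a CCAAT match at 48 to 38. The CYBA window, rich in G and C, held no match to any of the 3 motifs. NCF1 held 1 match to GAGGAA and 1 to the GAAA pair, and CYBC1 held none. Among 35116 RefSeq windows of this length, 23.6% held GAGGAA, 32.0% held CCAAT and 3.02% held the GAAA pair. A match describes the letters only and shows no binding.

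Library totals ranged from 4658513 to 7339843 reads. A level is a gene's read count scaled to a common library size (CPM), with TMM correction of the library totals. A change is a log2 fold change, given with its standard error (SE) or 95% interval, and edgeR's quasi-likelihood test supplies the p-value, adjusted over all tested genes and called under 0.05. In the guide arm ALAS1 was lower in sgALAS1 (26.6 ± 0.56 CPM, SD, n = 3) than in sgSCR (39.3 ± 2.37 CPM), by -0.56 (SE 0.14, adjusted p = 0.00777), a call that was lost without sgSCR library 2 (-0.51, adjusted p = 0.0503). Against Vehicle (35.0 ± 3.40 CPM), a comparison added after the values were seen, ALAS1 in sgALAS1 was not called. A 3′ tag does not show whether the guide cut its site. Of the myeloid identity markers all 7 were detected, with CD33 at 28.8 to 38.8 CPM by group but MPO, the enzyme of primary granules, at no more than 3.78 CPM. Of the markers of other lineages, HBB and CD3E had 0 reads in the 12 libraries, which allows up to 0.0434 CPM for each. The lymphoid markers summed to at most 1.39 CPM in a library, the epithelial and stromal markers to at most 8.32 CPM, mostly COL1A2, and the erythroid markers to at most 13.1 CPM, nearly all EPOR. Such limits cover counting error only.

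CYBB and NCF4 rose in both arms. With SA 2 of the 6 tested oxidase genes passed the test, both upwards. Of all tested genes 11.1% passed with SA, 4.83% upwards and 6.24% downwards. With sgALAS1 again 2 of 6 passed, the same 2 genes, both upwards. Of all tested genes 11.7% passed with sgALAS1, 4.88% upwards and 6.85% downwards. No oxidase gene passed the test downwards in either arm. The median change of the 6 genes was 0.39 with SA and 0.27 with sgALAS1, and that of all tested genes was -0.01 with SA and 0.00 with sgALAS1. In RNA from whole cultures, more transcript per cell and more cells that express the gene cannot be told apart.

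**Figure D1:**
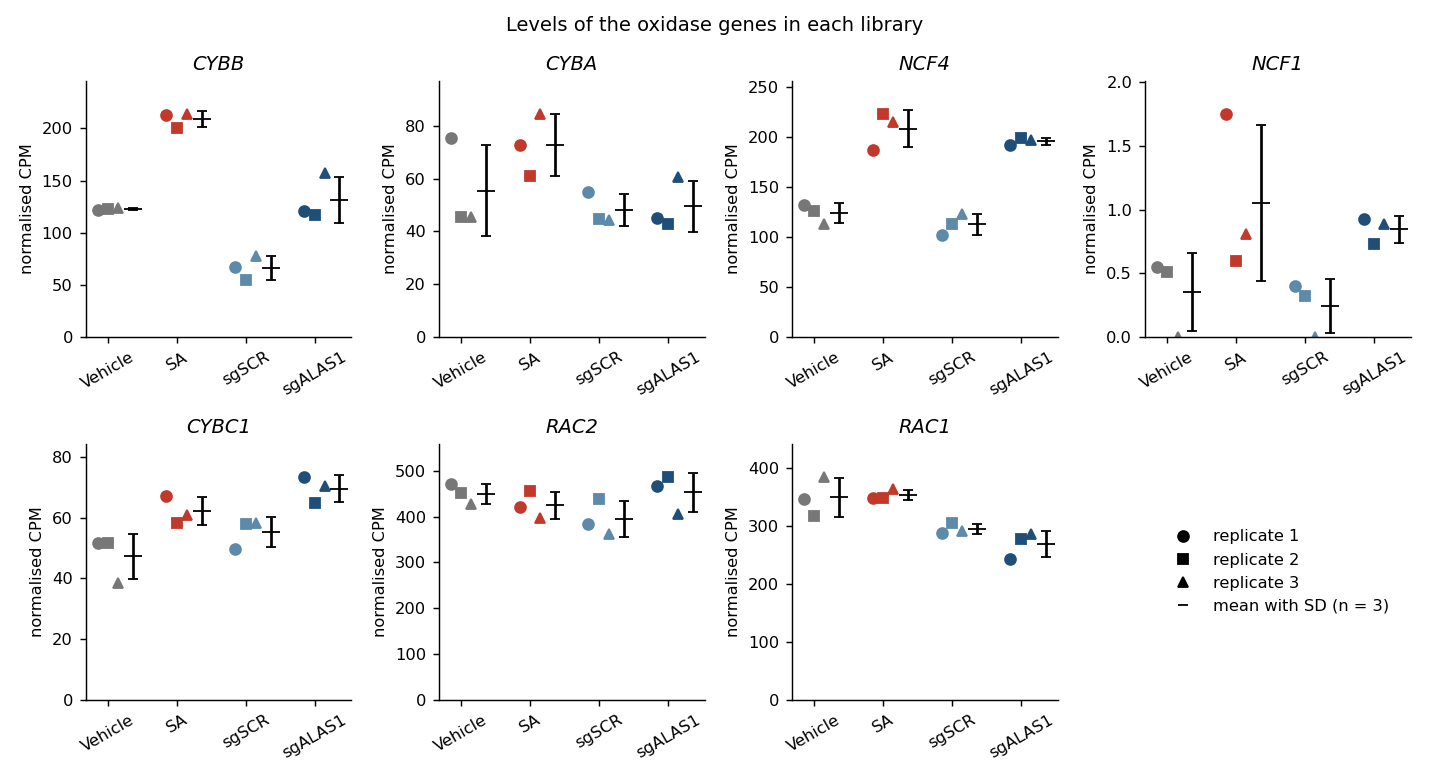
Normalised CPM of the 7 oxidase genes (vertical axes, each from 0) in every library of the 4 groups (horizontal axis); symbols mark the replicate number and black bars the mean with the SD of 3 libraries. CYBB and NCF4 stand higher in SA than in Vehicle and higher in sgALAS1 than in sgSCR, with no overlap, and CYBB in sgSCR stands below CYBB in Vehicle.

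CYBB (ENSG00000165168, chromosome X), the catalytic chain, had the widest range of CPM among the 6 tested genes. It stood at 122, 123 and 123 CPM in Vehicle and rose to 213, 200.2 and 214 CPM with SA. Every SA library stood above every Vehicle library, and the change was 0.77 (SE 0.13, adjusted p = 1.22e-04), or 1.70-fold. In the guide arm CYBB was at 66.9, 54.8 and 77.4 CPM in sgSCR and at 121, 117 and 157 CPM in sgALAS1. These groups did not overlap either, and the change was 0.99 (SE 0.13, adjusted p = 3.12e-06), or 1.98-fold. The difference between the arms was 0.22 (95% interval -0.16 to 0.60, adjusted p = 0.704).

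The control groups themselves differed in CYBB. Its level in sgSCR was below that in Vehicle in every library, by -0.89 (SE 0.13, adjusted p = 2.05e-04), or 1.85-fold. CYBB was the only one of the 6 tested oxidase genes to pass in this comparison, in which 1.43% of all tested genes passed (0.47% higher, 0.962% lower). The other 5 lay between -0.24 and 0.23 with adjusted p-values from 0.324 to 0.703. The 2 control groups differ in guide, doxycycline and days of treatment, which cannot be told apart. The choice of control therefore changes the value in the guide arm. Set against Vehicle, a comparison added after the values were seen, CYBB in sgALAS1 was at 0.10 (95% interval -0.17 to 0.37, adjusted p = 0.68), and the sgALAS1 libraries lay on both sides of the Vehicle libraries. Set against sgSCR, CYBB in SA was at 1.66 (SE 0.13, adjusted p = 4.28e-10). The order of CYBB levels was thus SA, then sgALAS1 and Vehicle, which overlapped, then sgSCR.

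CYBA (ENSG00000051523, chromosome 16), the smaller chain of the cytochrome, did not pass in either arm. It was at 75.3, 45.5 and 45.3 CPM in Vehicle and at 72.9, 61.1 and 84.3 CPM in SA, with the first Vehicle library inside the range of SA. The change was 0.39 (95% interval 0.03 to 0.75, adjusted p = 0.165). The call depended on that library, and without Vehicle library 1 the change was 0.68 with an adjusted p of 0.00811. Against sgSCR, CYBA in SA was higher by 0.60 (SE 0.18, adjusted p = 0.0231). Among the guide libraries it stood at 55.0, 44.7 and 44.5 CPM in sgSCR and at 45.1, 42.7 and 60.5 CPM in sgALAS1, which overlap. That change was 0.04 (95% interval -0.33 to 0.41, adjusted p = 0.935).

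CYBC1 (ENSG00000178927, chromosome 17), the chaperone gene, stood higher in the treated group of each arm without passing the test. It was at 51.4, 51.6 and 38.6 CPM in Vehicle and at 67.2, 58.1 and 61.0 CPM in SA, and the change was 0.39 (SE 0.14, adjusted p = 0.0727). For the guides it was at 49.6, 58.0 and 58.0 CPM in sgSCR and at 73.3, 64.9 and 70.5 CPM in sgALAS1, a change of 0.33 (SE 0.14, adjusted p = 0.131). In neither arm did the groups overlap. The share of all tested genes without overlap was not counted, so this adds nothing to the test. Against Vehicle, the level in sgALAS1 was higher by 0.56 (SE 0.14, adjusted p = 0.00634). CYBC1 shares its locus with HEXD, a hexosaminidase gene on the opposite strand that had 2016 reads against 4021 for CYBC1, and the strand setting of the counting was not given in the sources used here. HEXD was at 0.43 with SA (adjusted p = 0.141) and at -0.07 with sgALAS1 (adjusted p = 0.869).

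Among the cytosolic subunits, NCF4 (ENSG00000100365, chromosome 22) rose in both arms. It was at 132, 126 and 113 CPM in Vehicle and at 187, 223 and 215 CPM in SA. The groups did not overlap, and the change was 0.75 (SE 0.12, adjusted p = 3.85e-05), or 1.68-fold. In sgSCR it was at 102, 113 and 123 CPM and in sgALAS1 at 192, 199 and 197 CPM, again without overlap, and the change was 0.80 (SE 0.12, adjusted p = 1.15e-05), or 1.74-fold. The difference between the arms was 0.05 (95% interval -0.29 to 0.38, adjusted p = 0.945). Unlike CYBB, NCF4 in sgALAS1 also stood above Vehicle, by 0.66 (SE 0.12, adjusted p = 1.33e-04), and its control groups differed by -0.14 (95% interval -0.38 to 0.10). An antisense gene, NCF4-AS1, overlaps it but had only 9 reads against 10939. The calls of CYBB and NCF4 in both arms held without any 1 of the libraries compared, with adjusted p-values of at most 0.0016.

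NCF1 (ENSG00000158517, chromosome 7), the organiser subunit, was barely detected. It had 4, 3 and 0 reads in Vehicle, 9, 3 and 5 in SA, 2, 2 and 0 in sgSCR and 6, 4 and 4 in sgALAS1, which is at most 1.75 CPM. Its near-identical copies NCF1B and NCF1C lie on the same chromosome, and how reads that fit several places were handled was likewise not given, so the split between them is uncertain. NCF1 held 20.1% of the reads on the 3 copies, and NCF1C held 137 reads over the 12 libraries against 42 for NCF1 and 30 for NCF1B. With the 3 copies summed the change was 1.24 with SA (SE 0.63, adjusted p = 0.222) and 1.65 with sgALAS1 (SE 0.72, adjusted p = 0.144). NCF1C alone, the one copy with enough reads for a test, was at 1.54 and 1.42 without passing. At these counts a change could not be resolved.

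Neither GTPase gene passed in either arm. RAC2 (ENSG00000128340, chromosome 22) was at 472, 451 and 428 CPM in Vehicle and at 421, 457 and 397 CPM in SA, which overlap (-0.08, 95% interval -0.31 to 0.14, adjusted p = 0.703). In sgSCR it was at 385, 438 and 362 CPM and in sgALAS1 at 468, 487 and 406 CPM, which also overlap (0.20, 95% interval -0.03 to 0.43, adjusted p = 0.268). RAC1 (ENSG00000136238, chromosome 7) was at 346, 318 and 385 CPM in Vehicle and at 349, 348 and 364 CPM in SA, with a change of 0.02 (95% interval -0.20 to 0.24, adjusted p = 0.952). Of the guide groups, RAC1 was at 289, 305 and 291 CPM in sgSCR and at 244, 278 and 286 CPM in sgALAS1, without overlap. The share of all tested genes without overlap was not counted, so this adds nothing to the test. The change of RAC1 with sgALAS1 did not pass (-0.13, 95% interval -0.35 to 0.09, adjusted p = 0.5). Set against Vehicle, RAC1 in sgALAS1 was lower by -0.38 (SE 0.11, adjusted p = 0.0158). RAC1 has pseudogene copies, and the 9 identifiers named for them held 218 reads against 21857 for RAC1.

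**Figure D2:**
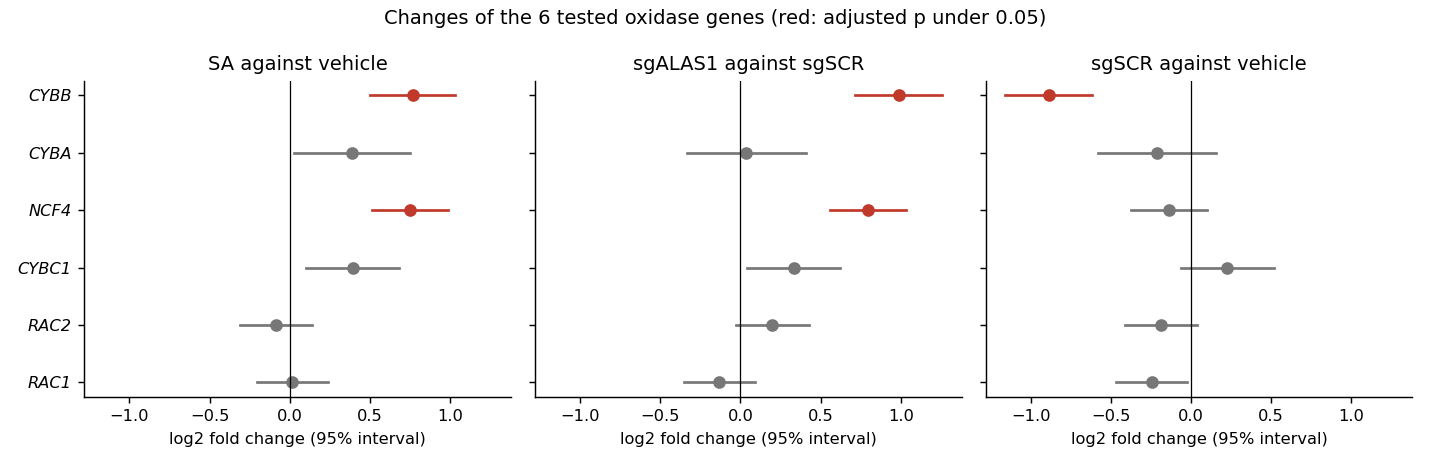
Log2 fold change (horizontal axis) with its 95% interval for the 6 tested oxidase genes in SA against Vehicle, sgALAS1 against sgSCR and sgSCR against Vehicle; red marks an adjusted p under 0.05. CYBB and NCF4 are red to the right of 0 in the first and second panels, and CYBB alone is red, to the left of 0, in the last.

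No oxidase gene passed the test of a difference between the arms, in which 1.19% of all tested genes passed (0.427% higher, 0.759% lower). At an unadjusted p under 0.05 the count was also 0 of 6, and DESeq2 called 0. The tests of SA and of sgSCR share the Vehicle libraries, and the 6 estimates of the difference lay between -0.35 for CYBA and 0.28 for RAC2. With the other control group in each arm the number of oxidase genes past the threshold was 3 of 6 for SA against sgSCR (CYBB, CYBA and NCF4 higher), where 13.6% of all tested genes passed, 5.91% higher and 7.65% lower. For sgALAS1 against Vehicle it was also 3 of 6 (NCF4 and CYBC1 higher, RAC1 lower), where 14.9% of all tested genes passed, 6.49% higher and 8.4% lower. NCF4 was the member that passed whichever control was used in either arm.

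Ratios of read counts within a library do not depend on scaling. They compare libraries and not the absolute levels of different genes, since the yield of 3′ tags differs between genes. CYBB reads per NCF4 read were 0.925 to 1.09 in Vehicle and 0.899 to 1.138 in SA, which overlap. They were lower in the guide arm, at 0.484 to 0.658 in sgSCR and 0.590 to 0.798 in sgALAS1. The ratio thus did not overlap between the guide libraries and the others, while within each arm treated and control overlapped. CYBB reads per CYBA read were 1.22 to 1.74 in sgSCR and 2.60 to 2.75 in sgALAS1, without overlap, while in Vehicle (1.62 to 2.72) and SA (2.53 to 3.28) they overlapped. CYBB reads per CYBC1 read were 0.945 to 1.35 in sgSCR and 1.65 to 2.23 in sgALAS1, without overlap, and 2.38 to 3.20 in Vehicle and 3.17 to 3.503 in SA, which overlap. RAC2 reads per RAC1 read were 1.24 to 1.44 in sgSCR and 1.42 to 1.92 in sgALAS1, with the highest sgSCR library above the lowest of sgALAS1.

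**Figure D3:**
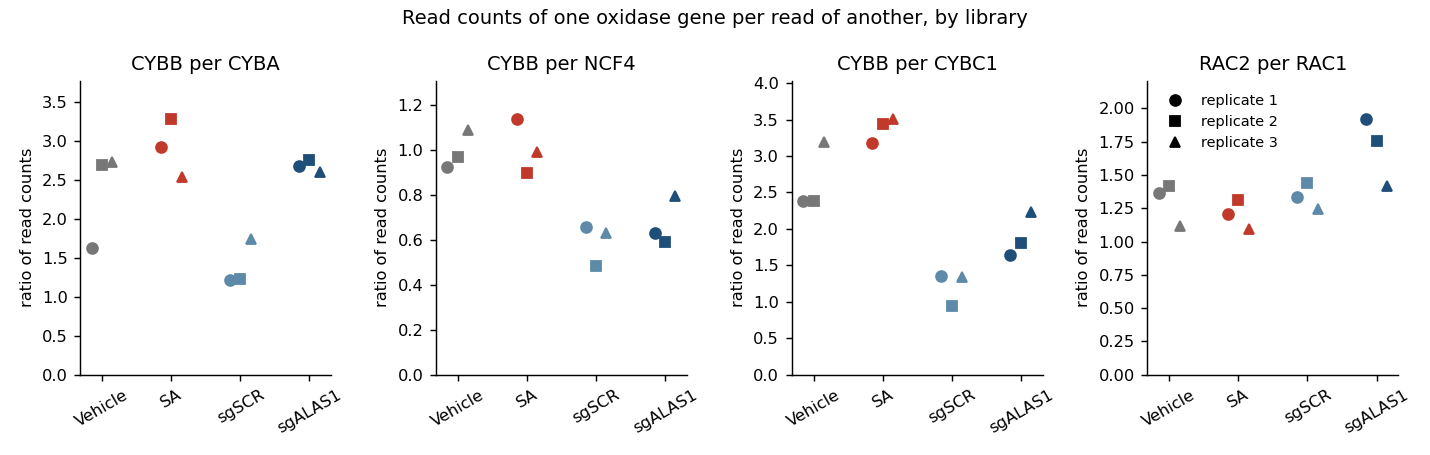
Reads of one oxidase gene per read of another (vertical axes, each from 0) in each library of the 4 groups (horizontal axis), with symbols for the replicate number. CYBB per NCF4 lies at 0.899 or above in Vehicle and SA and at 0.798 or below in sgSCR and sgALAS1.

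Across the 12 libraries, Pearson correlations of log2 CPM between the 6 tested oxidase genes, given as a description, ran from -0.58 (RAC1 with CYBC1) to 0.79 (CYBB with NCF4). CYBB was at 0.63 with CYBA, 0.19 with RAC2, 0.44 with RAC1 and 0.28 with CYBC1. Among 8882 other named genes whose mean log2 CPM reached 3, the 5 most like CYBB over the same libraries were IL6R (0.97), VCAN (0.96), ARRB2 (0.95), STIM2 (0.94) and PTPRE (0.94). The libraries share their 4 groups, and a gene that differs between groups can reach a high value from that alone. VCAN, the gene of the matrix proteoglycan versican, was at 412 ± 68.3 CPM in Vehicle, 701 ± 20.5 in SA, 208 ± 22.9 in sgSCR and 513 ± 43.7 in sgALAS1 (SD, n = 3). IL6R, the receptor chain for interleukin-6, was at 136 ± 6.32, 171 ± 5.33, 90.04 ± 12.1 and 141 ± 21.9 CPM in the same order. Both were lowest on average in sgSCR and highest in SA, an order that their choice by likeness to CYBB makes likely in advance.

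Of the myeloid identity markers, LYZ and CD14 rose in both arms. LYZ, the gene of lysozyme, rose by 1.37 (SE 0.12, adjusted p = 1.36e-09) with SA and by 1.60 (SE 0.12, adjusted p = 1.90e-11) with sgALAS1, and was lower in sgSCR than in Vehicle (-0.73, adjusted p = 4.02e-04). CD14, a monocyte receptor for bacterial lipopolysaccharide, rose by 1.67 (SE 0.18) and 1.73 (SE 0.19). Of the 7 markers 2 rose with SA and 3 with sgALAS1 (ANPEP besides these), and none passed the test downwards. Over all tested genes 4.83% rose and 6.24% fell with SA, and 4.88% rose and 6.85% fell with sgALAS1. CSF3R, the receptor for granulocyte colony-stimulating factor, was at -0.37 (adjusted p = 0.155) and -0.35 (adjusted p = 0.17), and it was lower in SA than in sgSCR (-0.80, adjusted p = 0.00115). MPO averaged 1.71 CPM in SA and 3.499 CPM in Vehicle (adjusted p = 0.21). Their summed level was 613 to 754 CPM in Vehicle, 1519 to 1787 in SA, 444 to 488 in sgSCR and 1128 to 1259 in sgALAS1, most of it LYZ. The erythroid markers, of which EPOR gave nearly all reads, summed to 4.27 to 7.77 CPM in the other groups and to 9.81 to 13.1 CPM in sgALAS1. The part of these markers in the changes of CYBB and NCF4 was not tested. COL1A2, a collagen gene of stromal cells, was lower in sgSCR than in Vehicle (-2.12, adjusted p = 0.0448), while EPCAM, CDH1 and COL1A1 had no more than 9 reads in any group.

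Among receptors that set off the oxidative burst, FCER1G and FCGR2A rose in both arms. With SA 3 of 9 tested genes rose and none fell (median 0.35), and with sgALAS1 4 rose and none fell (median 0.53), against 4.83% and 4.88% of all tested genes that rose. DESeq2 called 3 with SA and 2 with sgALAS1 (FCER1G and FCGR2A). FCER1G, the signalling chain shared by Fc receptors, rose with SA from 51.3 ± 11.5 to 116 ± 2.87 CPM (1.18, SE 0.14, adjusted p = 6.30e-07) and from 49.3 ± 4.21 to 126 ± 7.49 CPM with sgALAS1 (1.36, SE 0.14, adjusted p = 2.28e-08). FCGR2A, a receptor for antibody-coated particles, rose by 0.75 (SE 0.15) and 1.20 (SE 0.15). Between sgSCR and Vehicle, edgeR and DESeq2 called 0 of the 9, where 1.43% of all tested genes passed by edgeR. At an unadjusted p under 0.05 there were 4, FCGR2A and ITGB2 among them, all lower in sgSCR. TNFRSF1B, a receptor for tumour necrosis factor, rose by 0.58 with SA. ITGB2, the beta chain of leukocyte integrins, rose by 0.82 with sgALAS1, but without sgSCR library 1, sgSCR library 2 or sgALAS1 library 2 the call was lost (adjusted p up to 0.0901), as it was with DESeq2 (0.15). TLR2, named after its values were seen, rose by 0.59 with sgALAS1 and lost its call without sgSCR library 1, sgSCR library 3, sgALAS1 library 1 or sgALAS1 library 2 (up to 0.233) and with DESeq2 (0.052). Set against Vehicle, FCER1G and FCGR2A in sgALAS1 were called higher, while ITGB2 and TLR2 were not called.

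The voltage-gated proton channel fell in both arms. HVCN1, which lets protons follow the electrons that the oxidase moves and so keeps it running, was at 52.7, 38.1 and 39.99 CPM in Vehicle and at 9.71, 18.3 and 16.7 CPM in SA. It was at 42.8, 42.4 and 26.9 CPM in sgSCR and at 9.88, 13.3 and 5.76 CPM in sgALAS1. The groups did not overlap in either arm, and the changes were -1.55 (SE 0.24, adjusted p = 3.84e-05) and -1.93 (SE 0.25, adjusted p = 1.62e-06). RAB27A, a GTPase of granule and vesicle traffic, rose by 0.63 (SE 0.14) and 0.74 (SE 0.14). SLC11A1, a metal transporter of the phagosome, fell by 2.62 on the log2 scale with sgALAS1 on 52 against 8 reads, a call lost without any 1 library but sgSCR library 2 (adjusted p up to 0.114). The proton channel and vesicle list held 8 tested genes, of which SA raised 1 and lowered 1, and sgALAS1 raised 1 and lowered 2, against 11.1% and 11.7% of all tested genes called.

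Among 11 tested transcription factors known to act on oxidase promoters, SPI1 rose with SA, IRF8 rose with sgALAS1, and IRF8 was the one whose change differed between the arms. SPI1, the gene of PU.1, was at 128, 90.4 and 87.8 CPM in Vehicle and at 216, 157 and 222 CPM in SA, which is higher by 0.96 (SE 0.16, adjusted p = 1.33e-04). With sgALAS1, SPI1 was at 0.35 without passing (95% interval 0.02 to 0.68, adjusted p = 0.174), although against Vehicle it was higher by 0.64 (SE 0.16, adjusted p = 0.0065), and the difference between the arms did not pass (adjusted p = 0.245). IRF8, a partner of PU.1 in monocyte development, was at 227, 284 and 295 CPM in sgSCR and at 467, 569 and 370 CPM in sgALAS1 (0.80, SE 0.16, adjusted p = 6.59e-04). With SA it was at -0.41 (adjusted p = 0.0972), and the difference between the arms was 1.21 (SE 0.23, adjusted p = 0.00225). Of the 11 factors 2 rose and 1 fell with SA, and 3 rose and none fell with sgALAS1, against 11.1% and 11.7% of all tested genes called in either direction. CUX1, a repressor of CYBB, rose with sgALAS1 by 0.51 (SE 0.12) against sgSCR but was at 0.06 against Vehicle (adjusted p = 0.802). CEBPA, named after its values were seen, rose by 0.42 with sgALAS1, and its call was lost without sgSCR library 2, sgSCR library 3, sgALAS1 library 1 or sgALAS1 library 3 (adjusted p up to 0.165). With SA, HOXA10 rose by 0.37 and ELF1 fell by 0.38 on the log2 scale. These calls were lost without any 1 library but Vehicle library 1 for HOXA10 (up to 0.125) and without Vehicle library 1, Vehicle library 2, SA library 1 or SA library 3 for ELF1 (up to 0.106).

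Genes that supply NADPH, the electron donor, rose in 3 of 7 cases with SA and in 1 with sgALAS1, and none fell. The shares that rose over all tested genes were 4.83% and 4.88%. ME1, the cytosolic malic enzyme, rose with SA from 15.01 ± 2.18 to 29.2 ± 2.04 CPM (0.96, SE 0.22, adjusted p = 0.00336). PGD, an enzyme of the pentose phosphate pathway named after its values were seen, rose by 0.43 with SA, a call lost without Vehicle library 2, Vehicle library 3, SA library 2 or SA library 3 (adjusted p up to 0.126), with no filter on low counts and against sgSCR (0.07, adjusted p = 0.762). IDH1, the cytosolic isocitrate dehydrogenase, rose by 0.40 with SA and 0.43 with sgALAS1. Its first call was lost without Vehicle library 1, SA library 2 or SA library 3 (up to 0.0656) and its second without sgALAS1 library 1 (0.0649). In sgALAS1 the change of ME1 was 0.56 without passing (adjusted p = 0.0944). Set against Vehicle, sgALAS1 raised 3 of 7, namely PGD, IDH1 and ME1, where 6.49% of all tested genes rose. The 3 against 1 above thus depends on the control. In the test of a difference between the arms edgeR and DESeq2 called 0 of 7, with 0 at an unadjusted p under 0.05. By edgeR 1.19% of all tested genes passed that test.

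Of 12 tested genes of superoxide and peroxide handling, MPO included, 1 fell with SA, against 6.24% of all tested genes. With sgALAS1 2 fell, against 6.85%, and none rose in either arm. PRDX3, the mitochondrial peroxiredoxin, fell by 0.38 and 0.42 on the log2 scale. Its call was lost with SA without Vehicle library 2, Vehicle library 3, SA library 1 or SA library 3 (adjusted p up to 0.199) and with sgALAS1 without any 1 library but sgSCR library 1 (up to 0.158). PRDX1, its cytosolic relative, fell by 0.44 on the log2 scale with sgALAS1, a call lost without sgSCR library 1 (0.063). In the list of kinases and lipid enzymes that prime the oxidase, edgeR and DESeq2 each called 0 of 16 in either arm. By edgeR 11.1% of all tested genes passed with SA and 11.7% with sgALAS1. Of the 16, 3 had an unadjusted p under 0.05 with SA and 3 with sgALAS1. The share of all tested genes at that level was not counted.

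Among 13 tested regulators of RAC and RAP GTPases there were 2 rises and 1 fall with SA, where 11.1% of all tested genes passed, and 1 of each with sgALAS1, where 11.7% did. PREX1, an activator of RAC, rose by 0.39 and 0.41, and its call was lost with SA without Vehicle library 1, Vehicle library 3, SA library 1 or SA library 2 (adjusted p up to 0.135) and with sgALAS1 without any 1 library but sgALAS1 library 2 (up to 0.118). ARHGDIA, which holds RAC in the cytosol, rose by 0.49 with SA, a call lost without Vehicle library 2 or SA library 3 (up to 0.0899). VAV3, another RAC activator, fell by 0.84 on the log2 scale with SA, a call lost without Vehicle library 2, Vehicle library 3, SA library 1 or SA library 3 (up to 0.148) and with DESeq2 (0.0564). ELMO1, an adaptor of RAC activation, fell by 1.60 on the log2 scale with sgALAS1 on 80 against 26 reads. That call was lost without any 1 library but sgSCR library 2 (up to 0.197).

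Of 10 relatives of the catalytic chain and their partners, the NOX and DUOX genes of other tissues, 2 had enough reads for a test. NOX1 averaged 4.17 CPM in Vehicle, 5.76 in SA, 3.03 in sgSCR and 1.41 in sgALAS1, and DUOX2 averaged 0.33, 1.62, 0.86 and 2.16 CPM in the same order. By edgeR and by DESeq2 neither passed in either arm, and DUOX2 alone had an unadjusted p under 0.05, 1 of 2, with SA. With sgALAS1 set against Vehicle both passed, NOX1 lower by -1.53 (adjusted p = 0.0456) and DUOX2 higher by 2.66 (adjusted p = 0.0383), on few reads. NOX3 had 0 reads in the 12 libraries, which allows up to 0.0434 CPM. Among the heme genes HMOX1, which breaks heme down, rose in both arms, from 2.30 ± 0.60 to 29.6 ± 6.58 CPM with SA and from 1.40 ± 0.17 to 8.63 ± 5.22 CPM with sgALAS1. ALAS1 itself was higher with SA (106 ± 4.60 CPM) than in Vehicle (35.02 ± 3.40 CPM). A link between ALAS1 transcripts and the changes of CYBB and NCF4 was not tested.

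**Figure D4:**
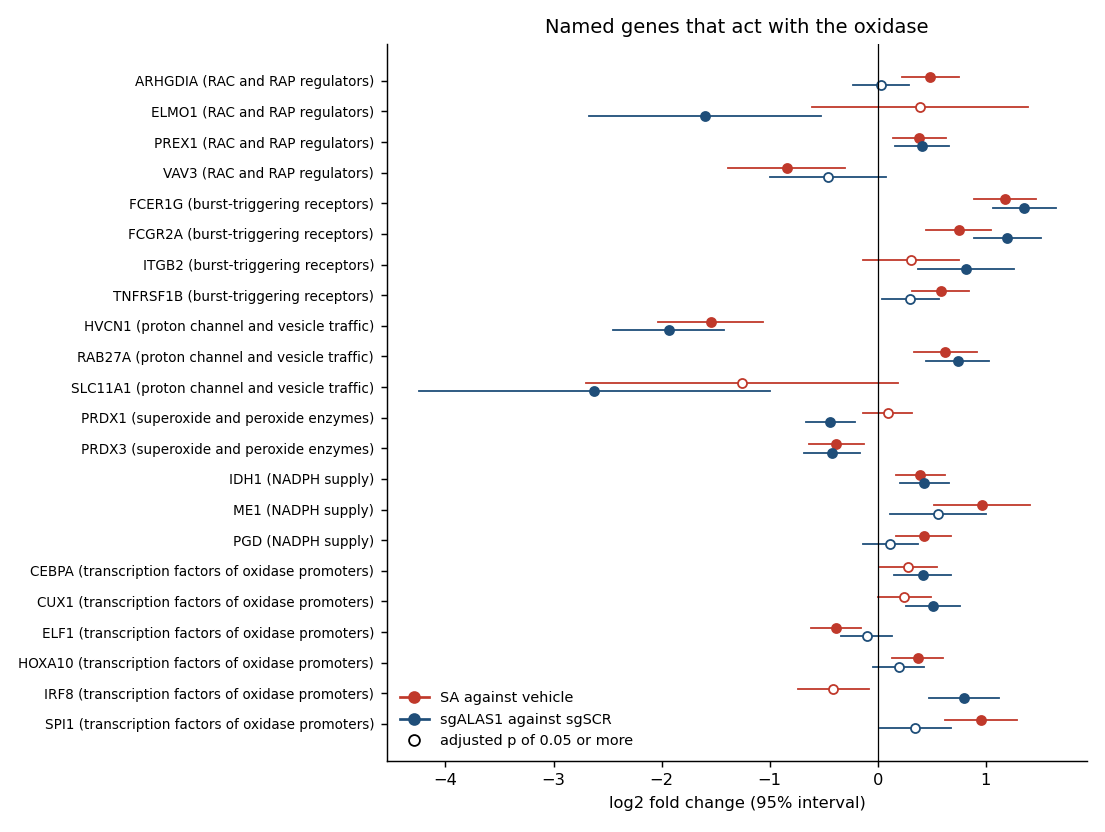
Log2 fold change (horizontal axis) with its 95% interval for genes that act with the oxidase (vertical axis, list in parentheses), in SA against Vehicle (red) and sgALAS1 against sgSCR (blue); open circles mark an adjusted p of 0.05 or more. FCER1G, FCGR2A and RAB27A lie right of 0 and HVCN1 left of 0 in both arms, while IRF8 lies on opposite sides.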

How the data were processed

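Per the labels, RNA from 12 OCI-AML3 libraries was prepared with QuantSeq and read single-end. Per the submitters' processing notes, tools included bcl2fastq 2.17.1.14, cutadapt 1.14, HISAT2 2.0.4, featureCounts of Subread 2.0.0, edgeR 3.34.0 and limma 3.48.3, with build hg19. The annotation release, strand setting and multi-mapping rule were not given in the sources used here. Raw read counts per Ensembl identifier were deposited by the authors; 51996 of 57905 identifiers were named from a current gene table and 342 from GENCODE 29.

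With R 4.3.3 and edgeR 4.0.16, filterByExpr kept 13832 genes. All 12 libraries were fitted by group with TMM scaling and two-sided quasi-likelihood tests, with Benjamini-Hochberg adjustment over all tested genes and no replicate block. The SE is the log2 change divided by the square root of F. The fit was tested on simulated counts. The alternatives were DESeq2 1.42.0, RLE scaling, no filter, fits of only 2 groups, a replicate block, each library left out, summed NCF1 copies and CPM by library total; the exchanged control groups were chosen after seeing the data. The members and gene lists were chosen with earlier results of these data known. A few genes of the lists are not reported here. Named are all members, up to 3 called genes a list and comparison by p, the markers, ALAS1 and the 5 genes most like CYBB. Depth limits low counts, NCF1 above all.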

Additional observations from a re-analysis of the deposited data

Results flagged for a closer look

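The effects of SA and of sgALAS1 differed, by edgeR's test of the difference itself, for ALAS1 and IRF8 among the genes named here. DESeq2 also called PRDX1 in the test of the difference, which edgeR did not. For ALAS1 the difference was -2.16 on the log2 scale (SE 0.20, adjusted p = 1.14e-08 by edgeR's quasi-likelihood test), with all 3 SA libraries above Vehicle and all 3 sgALAS1 libraries below sgSCR; ALAS1 is the gene that the guide targets. For IRF8 it was 1.21 (SE 0.23, adjusted p = 0.00225). Every sgALAS1 library stood above every sgSCR library, while the SA and Vehicle libraries overlapped. Without any 1 of the 12 libraries the IRF8 difference stayed between 1.04 and 1.40, with adjusted p-values up to 0.015.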

How the results depend on the processing

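CYBB and NCF4 passed in both arms, and CYBB in sgSCR against Vehicle, under every alternative run but the exchanged controls, chosen after seeing the data, with which CYBB in sgALAS1 was at 0.10. Changes near 0 turned sign: CYBA with sgALAS1 (-0.12 to 0.14 over left-out libraries, -0.18 against Vehicle), CYBA in sgSCR (-0.34 to 0.073), RAC1 with SA (-0.050 to 0.094; it was -8.96e-05 without SA replicate 3), RAC2 with SA (0.10 against sgSCR), and the difference between the arms for NCF4 (-0.022 to 0.11) and CYBC1 (-0.14 to 0.054). With single libraries left out, genes past the threshold numbered 954 to 1595 for SA (1531 with all), 1134 to 1415 for sgALAS1 (1622), 84 to 276 for sgSCR (198) and 109 to 340 for the difference (164; 277 without the filter). The lowest counts came without SA replicate 3, sgSCR replicate 2 for sgALAS1, and sgSCR replicate 1 for the last 2. Without Vehicle replicate 2 they were 955 for SA and 104 for sgSCR, without SA replicate 1 982 for SA, and without Vehicle replicate 1 340 for the difference. Oxidase genes past the threshold were 2 or 3 for SA, 2 for sgALAS1, 1 for sgSCR and 0 for the difference. With library totals alone, the Vehicle mean of CYBB was 126 CPM. Correlations of residuals were -0.07 to 0.09 within a replicate number and -0.15 to 0.11 across numbers, which does not settle whether the libraries were paired. With a replicate block the counts were 1704, 1796, 266 and 227, each higher than without it, and no call of an oxidase gene changed. Depth limits NCF1, SLC11A1, ELMO1 and NOX1.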
